A study of Mus musculus with 12 samples.

Results

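The 28 genes described here make, sense and move cholesterol. They were chosen by symbol as rows of the count table, with no cut on their values but with earlier results of these data known. They comprise 18 enzymes of synthesis, 5 regulators of the pathway, and 5 genes of sterol transport, efflux and the LXR receptors. All 28 were among the 24421 gene symbols of the table, and all 28 were among the 13534 genes with enough counts to be tested. The count table came from ribosome-bound mRNA of subcutaneous tumours of 2 melanoma lines, B16F10, which the labels call highly metastatic (n = 7 libraries), and B16F0, called poorly metastatic (n = 5). Both lines grew for 12 days in C57BL/6 mice of the genotype Rpl22fl/flHA;Cdh5(PAC)-CreERT2. In these hosts tamoxifen switches on Cre recombinase under the promoter of the endothelial cadherin gene Cdh5, and the ribosomal protein Rpl22 then carries an HA tag in endothelial cells, so that precipitating the tag enriches transcripts under translation in blood vessel cells. Hosts of both groups carried the same alleles and received tamoxifen, and the age of the animals is not given in the sources used here. Each group was spread over 3 sequencing lanes, read from the lane numbers 1, 2 and 6 in the library names of the labels. Whether libraries of the same lane number shared a run is not stated. Whether replicates came from separate animals is not stated either, so p-values measure only the spread between these libraries.

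Cholesterol is built from acetyl-CoA through mevalonate, squalene and lanosterol in the endoplasmic reticulum. When sterols are scarce there, the carrier protein Scap brings the transcription factors Srebf1 and Srebf2 to the Golgi, where they are cut and released to the nucleus to switch on the genes of synthesis and uptake. Insig proteins hold Scap back when sterols are plentiful, and oxidised sterols activate the LXR receptors Nr1h2 and Nr1h3, which switch on the exporters Abca1 and Abcg1. Tumour cells and endothelial cells both use these genes, and the precipitates held transcripts of both kinds of cell.

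Library totals ran from 5322510 to 20569186 counts in B16F10 and from 10753106 to 17381336 in B16F0. The markers of the labelled cell type were present in all 12 libraries. Cdh5 lay between 78.6 and 764 CPM (counts scaled to a common total and for library composition) and the 20 pan-endothelial genes summed to between 768 and 5450 CPM. The 19 melanocytic genes, of the pigment cell lineage of the tumour, summed to between 12112 and 25723 CPM. Endothelial and melanocytic scores, each the mean log2 CPM of its list, were used below as measures of library content. B16F0 replicate 3 and B16F10 replicates 4 and 5 had the highest endothelial scores, and B16F0 replicates 1 and 2 and B16F10 replicate 3 the highest melanocytic scores (8.91, 9.04 and 8.96 against 8.17 to 8.59 in the other 9). The ribosomal RNA precursor Rn45s took 31.4% of counts in B16F10 replicate 5 and 8.91% in B16F0 replicate 5. The summed CPM of olfactory, vomeronasal and taste receptor genes, which most tissues do not express, was 805 and 668 in B16F10 replicates 1 and 2 and between 10.4 and 307 in the others.

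Upstream stretches of 4 of these genes are printed here as a description of their sequence. Whether the marked motifs bear on the transcript levels given below was not tested. Upstream sequences were taken from the promoter table of RefSeq on GRCm38.p6, which reaches from 250 bases before to 50 bases after each start site and held 23 of the 28 genes. Capitals mark the box of the factor NF-Y (CCAAT, or ATTGG where it lies on the other strand) and, in Hmgcs1 alone, the sterol regulatory element TCACNCCAC that SREBP factors bind. The stretches are parts of the sequence upstream of the start, with limits set by hand, and they touch no annotated exon. Hmgcs1 and Hsd17b7 also had NF-Y boxes outside the printed parts. That of Hmgcs1 lies at chr13:119690161-119690350 on the plus strand. The others lie on the minus strand, at chr1:121332590-121332739 for Insig2, chr8:122443423-122443502 for Mvd and chr1:169969245-169969385 for Hsd17b7.
Hmgcs1: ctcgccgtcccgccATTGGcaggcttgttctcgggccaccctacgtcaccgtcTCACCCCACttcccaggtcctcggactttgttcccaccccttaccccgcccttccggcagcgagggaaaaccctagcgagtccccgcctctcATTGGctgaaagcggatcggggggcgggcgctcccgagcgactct
Insig2: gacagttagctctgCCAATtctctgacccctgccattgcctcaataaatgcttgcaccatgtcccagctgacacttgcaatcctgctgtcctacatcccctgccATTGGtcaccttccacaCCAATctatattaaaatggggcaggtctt
Mvd: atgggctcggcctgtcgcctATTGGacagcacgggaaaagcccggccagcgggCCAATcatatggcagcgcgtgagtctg
Hsd17b7: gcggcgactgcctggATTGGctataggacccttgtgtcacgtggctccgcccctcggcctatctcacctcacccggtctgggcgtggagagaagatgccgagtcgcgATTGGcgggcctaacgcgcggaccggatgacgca
The sterol element of Hmgcs1 began 137 bases before the start site. It was the only match to TCACNCCAC, searched on both strands, among the 23 genes, against 1.44% of the 27025 genes of the table. The NF-Y box was found on either strand in 14 of 15 synthesis genes with a promoter (93.3%) and in 18 of 23 of all the cholesterol genes (78.3%), against 41.1% of the table's genes. A gene counted if any of its promoters held the motif. Insig2 had 3 such boxes in the printed stretch and no match to the sterol element as spelled. Its other promoter windows, chr1:121327975-121328274 and chr1:121327629-121327928, held 0 boxes each. These are matches of letters in a short window, and no binding was measured.

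Transcript levels of the pathway spanned a wide range. Per kilobase of annotated exon, averaged over the 12 libraries, the highest were Insig1, a sterol-sensing anchor of Scap, at 71.8 CPM per kb, Cyp51, which demethylates lanosterol, at 57.7, Hmgcs1, which makes HMG-CoA, at 50.2, and Insig2, the second anchor, at 47.2. The lowest were the LXR gene Nr1h3 at 0.38, the isomerase Idi1 at 0.74 and the sterol reductase Tm7sf2 at 1.20 CPM per kb. Nr1h3 rested on 3 to 17 counts in each library and Idi1 on 6 to 82. Idi1 also has 2 near-identical genes in the annotation, and Tm7sf2 shares exon positions with Vps51. Whether these lowered the counts was not tested.

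The first comparison asked which of these transcripts differ between the precipitates of highly and poorly metastatic tumours. In bulk libraries such as these, fewer cells of a type and less RNA per cell cannot be told apart. Of the 28 genes, 1 was lower in B16F10 and none was higher, at an adjusted p under 0.05 in edgeR's quasi-likelihood fit of lane and group. Over all tested genes 1.47% were lower and 1.3% higher, so the count of the cholesterol genes (1 of 28) lies near that background. At an unadjusted p under 0.05 by edgeR there were 6 of 28, against 14.8% of all tested genes. The number called lower was 0 without B16F10 replicate 1 or without B16F0 replicate 1, 2 or 5, 3 without B16F10 replicate 3 and 4 without B16F0 replicate 3. It was 5 in a fit with the opening of the library names in place of the lane. These openings split lane 1 into 2 pairs, each of 1 B16F10 and 1 B16F0 library. In lane 2 the B16F10 and B16F0 libraries had different openings, which that fit merged. Within lane 2 the opening and the tumour line thus cannot be told apart. What these openings stand for is not stated in the labels. In that fit edgeR's adjusted p was 0.014 for Insig2, 0.0209 for Hmgcs1, 0.0348 for Hsd17b7, 0.0476 for Fdft1 and 0.0317 for Stard4, at log2 fold changes of -0.68, -0.77, -0.61, -0.67 and -0.51.

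Insig2, which retains Scap in the endoplasmic reticulum, was the gene that fell (chr1:121304353-121332589, minus strand, mm10). It stood at 91.4, 127 and 200 CPM (lowest, median, highest) in B16F10 and at 181, 190, 180, 220 and 259 CPM in B16F0 replicates 1 to 5. The 5 lowest B16F10 libraries lay below every B16F0 library, and B16F10 replicates 6 and 7, at 180 and 200 CPM, lay within the B16F0 range. The group means were 134 ± 41.7 CPM (SD, n = 7) and 206 ± 33.9 CPM (SD, n = 5), and the log2 fold change was -0.68 ± 0.14 (SE), with an edgeR adjusted p of 0.0235. The difference had the same direction in each lane, at -0.96, -0.64 and -0.49 in lanes 1, 2 and 6. The authors' deposited table gives Insig2 a log2 fold change of -0.69 and an adjusted p of 0.0146. The call depended on single libraries. Without B16F10 replicate 1 or 4, or B16F0 replicate 1, 2 or 5, edgeR's adjusted p was 0.0612, 0.0697, 0.0634, 0.0611 and 0.0756, at log2 fold changes between -0.70 and -0.64. The fit with the replicate number as a block gave -0.88 with an adjusted p of 0.129 by edgeR. B16F10 replicates 6 and 7 have no B16F0 library of the same number, so they do not inform that fold change. Replicate numbers are not stated to pair libraries.

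The other regulators did not pass the test, and all 4 had fold changes below 0. Srebf1, the SREBP most tied to fatty acid genes, was at 53.1 ± 16.6 CPM in B16F10 and 65.5 ± 12.4 CPM in B16F0 (SD), which gave -0.29 ± 0.20 (SE) on the log2 scale. Srebf2, the SREBP most tied to cholesterol genes, had -0.26 ± 0.16 and Insig1 -0.20 ± 0.24. Scap was the most even of the 5, between 65.4 and 88.9 CPM in all 12 libraries, with a log2 fold change of -0.03 ± 0.12 (SE).

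**Figure D1:**
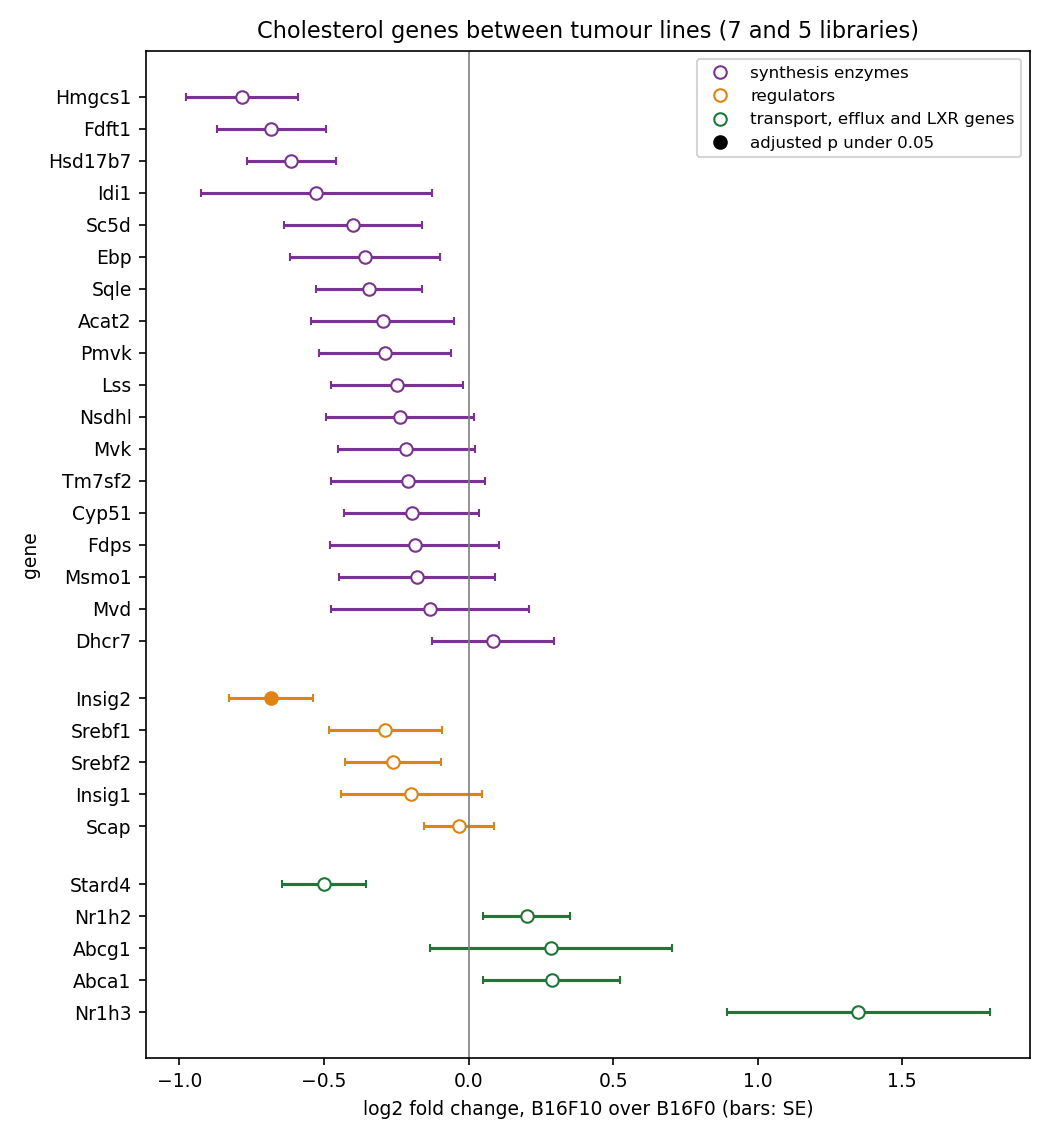
Log2 fold change of B16F10 over B16F0 with its standard error (horizontal axis) for the 28 cholesterol genes (vertical axis), grouped by role, from edgeR with the lane in the fit (7 and 5 libraries). Insig2, at -0.68, is the filled point, and 17 of the 18 synthesis enzymes lie to the left of 0 without passing the test.

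None of the 18 synthesis enzymes passed the test with the lane in the fit (edgeR adjusted p 0.0512 to 0.909), while Hmgcs1, Hsd17b7 and Fdft1 did with the opening of the library names in its place. Of the 18, 3 had an unadjusted p under 0.05 by edgeR, a share near the 14.8% of all tested genes. With the lane in the fit 17 of the 18 had a log2 fold change below 0, with a median of -0.27. Over all tested genes 47.5% had a fold change below 0, and the median was 0.019. For all 28 cholesterol genes the number below 0 was 23, with a median of -0.24.

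Hmgcs1, the synthase at the entry to the mevalonate route, was nearest to the threshold. It stood at 104, 160 and 287 CPM (lowest, median, highest) in B16F10 and at 453, 470, 267, 188 and 181 CPM in B16F0 replicates 1 to 5. The groups overlapped, with 5 of 7 B16F10 libraries below the lowest of B16F0. The log2 fold change was -0.78 ± 0.19 (SE), with an edgeR adjusted p of 0.0512. It was below 0 in each lane, at -0.48, -1.50 and -0.58 in lanes 1, 2 and 6.

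Hsd17b7, which reduces a keto group late in the route, did not overlap between the groups. Its B16F10 libraries lay at 26.9, 29.0 and 36.5 CPM (lowest, median, highest) and its B16F0 libraries at 64.1, 52.6, 38.4, 43.1 and 42.3 CPM in replicates 1 to 5. All 7 B16F10 libraries were thus below all 5 of B16F0, as for 1.46% of all tested genes, while no cholesterol gene had all of B16F10 above all of B16F0, as 1.27% of tested genes did. The log2 fold change was -0.61 ± 0.15 (SE), with an edgeR adjusted p of 0.0561.

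Fdft1, the squalene synthase at the branch to sterols, ranged from 23.7 to 46.7 CPM in B16F10 and from 39.1 to 67.9 CPM in B16F0, with B16F10 replicates 3 and 4 inside the B16F0 range. Its log2 fold change was -0.68 ± 0.19 (SE), with an edgeR adjusted p of 0.0806. Exons of Fdft1 overlap those of Ctsb on the opposite strand, and the strand setting of the counting is not given in the sources used here. Ctsb itself did not pass the test, at -0.34 ± 0.16 (SE). In the authors' deposited table Hmgcs1 and Hsd17b7 have adjusted p-values of 0.0236 and 0.0433 and Fdft1 one of 0.0598. That table lists 3 of the 28 genes under 0.05, these and Insig2. In edgeR fits without B16F0 replicate 3 the adjusted p was 0.0185 for Hmgcs1, 0.0271 for Hsd17b7 and 0.0227 for Fdft1. Without B16F10 replicate 3 it was 0.0388 for Hmgcs1 and 0.0473 for Fdft1. No other single library, when left out, brought any of these genes under 0.05. Leaving out each library in turn gave log2 fold changes from -0.92 to -0.55 for Hmgcs1. The ranges were -0.72 to -0.43 for Hsd17b7 and -0.83 to -0.45 for Fdft1.

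**Figure D2:**
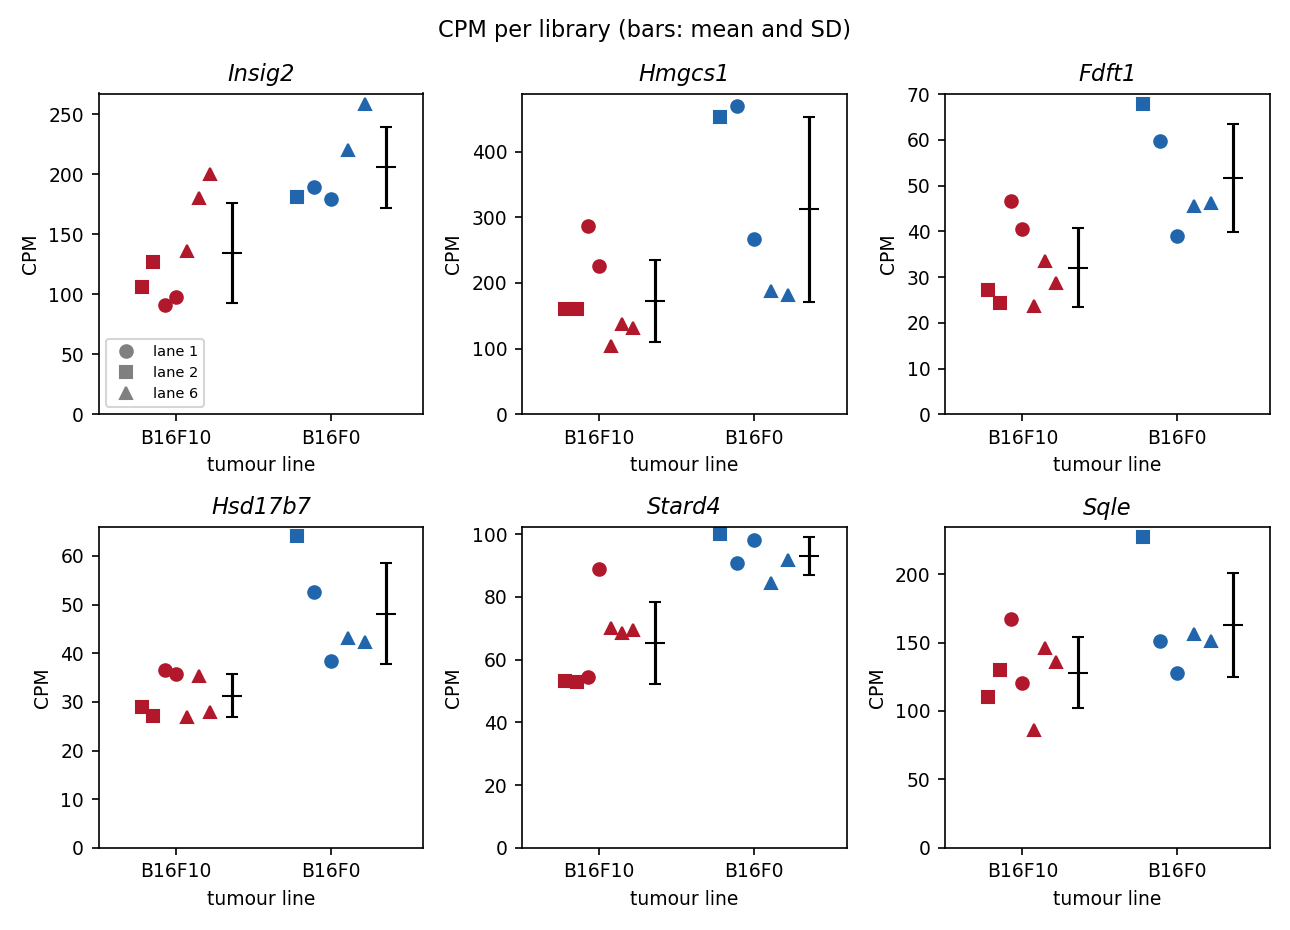
CPM (vertical axes, from 0) of 6 cholesterol genes in the 7 B16F10 and 5 B16F0 libraries (points, shaped by lane), with the mean and SD of each group beside them. Insig2 and Hsd17b7 are lower in most or all B16F10 libraries, and B16F0 replicate 1 (the square among the B16F0 points) is the highest point of Fdft1, Hsd17b7, Stard4 and Sqle.

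The other 15 enzymes had smaller differences. In the mevalonate part of the route, the thiolase Acat2, the kinases Mvk and Pmvk, the decarboxylase Mvd, the isomerase Idi1 and the farnesyl diphosphate synthase Fdps had log2 fold changes of -0.30, -0.21, -0.29, -0.13, -0.53 and -0.19, with standard errors from 0.23 to 0.40. In the sterol part, the squalene epoxidase Sqle had -0.34 and the lanosterol synthase Lss -0.25. Cyp51 had -0.20, the methyl oxidase Msmo1 -0.18, the dehydrogenase Nsdhl -0.24 and Tm7sf2 -0.21. The isomerase Ebp had -0.36 and the desaturase Sc5d -0.40, while Dhcr7, which reduces the last precursor to cholesterol, had 0.08 ± 0.21 (SE). Overlapping or near-identical genes could bear on several of these values, which was not tested. Cyp51 shares exon positions with Akap9 and Lss with 4930483K19Rik on the opposite strand, Tm7sf2 with Vps51 on the same strand, and Acat2 has the near-identical gene Acat3. Acat3 held at most 1.01 CPM in any library. Idi1 has 2 and Fdps 5 near-identical genes in the annotation that are not in the count table.

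The direction of the synthesis genes rested on lane 2. In lane 2, which held B16F10 replicates 1 and 2 and B16F0 replicate 1 alone, all 18 genes were lower in B16F10, by a median difference of -1.11 in log2 CPM (range -1.50 to -0.33). In lane 1 (2 libraries of each group) 6 of 18 were lower and the median was 0.043 (range -0.48 to 0.55). In lane 6 (3 B16F10 and 2 B16F0 libraries) 12 of 18 were lower and the median was -0.16 (range -0.87 to 0.23). Without B16F0 replicate 1, the fold changes of 8 synthesis genes were below 0 and those of 10 above it, with a median of 0.0029. Without the 3 libraries of lane 2 the split was 8 and 10, with a median of 0.019. These settings are nearly the same fit, because lane 2 without B16F0 replicate 1 holds B16F10 libraries only. Neither can tell high values in B16F0 replicate 1 from low values in B16F10 replicates 1 and 2. Without B16F10 replicate 3, all 18 lay below 0, at a median of -0.44. Within lane 2 the groups also differed in the opening of the library names and in other measures, whose part in the result was not tested. The pericyte and fibroblast score was 5.52 and 5.93 in the B16F10 libraries and 3.36 in the B16F0 library, and the receptor genes silent in most tissues summed to 805 and 668 CPM against 10.4 CPM. The melanocytic score was 8.22 and 8.36 against 8.91.

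**Figure D3:**
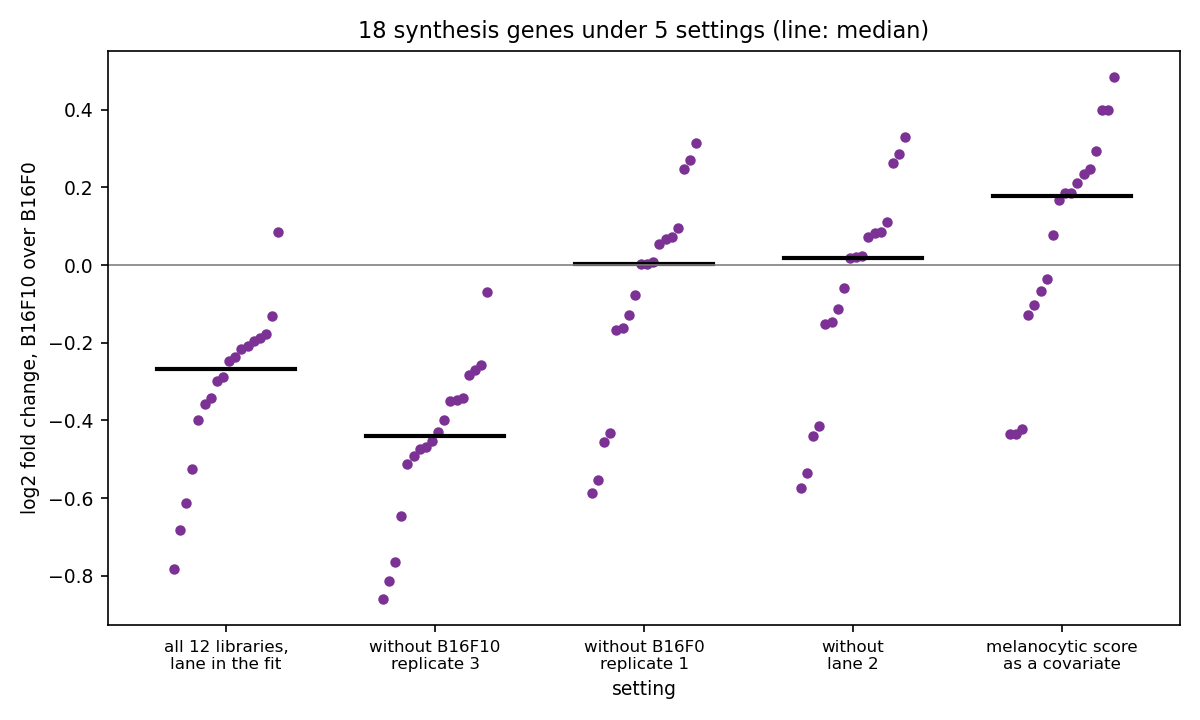
Log2 fold changes of B16F10 over B16F0 (vertical axis) of the 18 synthesis genes (points, sorted within each setting, with a line at the median) in the fit of all 12 libraries and under 4 other settings (horizontal axis). The median moves from -0.27 with all libraries to 0.0029 without B16F0 replicate 1 and to 0.18 with the melanocytic score as a covariate.

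Of the transport and efflux genes, none passed the test with the lane in the fit. Stard4, which carries cholesterol between membranes, was at 53.0, 68.5 and 89.0 CPM (lowest, median, highest) in B16F10 and at 99.9, 90.8, 98.0, 84.5 and 91.8 CPM in B16F0 replicates 1 to 5. B16F10 replicate 4 was the single library of its group inside the B16F0 range. The log2 fold change was -0.50 ± 0.14 (SE), with an edgeR adjusted p of 0.095. Without that library, the highest of its group, it was -0.62 with an edgeR adjusted p of 0.0381. Leaving out the highest library of the lower group widens the difference by itself. With each library left out in turn the fold change ran from -0.62 to -0.37, and no other of these fits called Stard4.

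The 4 genes of the LXR and efflux branch had fold changes above 0 and wide errors. The exporters Abca1 and Abcg1 had log2 fold changes of 0.29 ± 0.24 and 0.29 ± 0.42 (SE), and the receptor Nr1h2 had 0.20 ± 0.15. Nr1h3 had 1.35 ± 0.45 (SE), with an edgeR adjusted p of 0.163, at 0.61 to 2.24 CPM in B16F10 and 0.23 to 0.79 CPM in B16F0. In Nr1h3, 6 of 7 B16F10 libraries were above the highest of B16F0, at counts too few for a firm estimate.

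The sequencing lane was related to 1 of the 28 genes by the same edgeR fit, against 3.14% of all tested genes. That gene was Abca1 (adjusted p = 0.0499), with means of 153, 93.8 and 66.3 CPM in lanes 1, 2 and 6. The number called ran from 0 to 7 with single libraries left out (7 without B16F0 replicate 1, 4 without B16F0 replicate 3, 3 without B16F10 replicate 5 and 0 without any other one), and it was 10 without the 3 libraries of highest endothelial score. Lane 1 also held B16F10 replicate 4 and B16F0 replicate 3, the 2 libraries of highest endothelial score.

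Endothelial content varied between libraries and not detectably between groups. The endothelial score was 5.42 ± 1.01 for B16F10 (SD, n = 7) against 5.44 ± 1.05 for B16F0 (SD, n = 5), with a two-sided p of 0.98 by exact permutation over 792 splits. For each gene, limma gave the slope of log2 CPM on the score beside terms for lane and group. Abca1 and Abcg1 rose with the score and no cholesterol gene fell with it, against 4.61% of tested genes that rose and 0.658% that fell.

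Abcg1, which passes cholesterol to mature high-density lipoprotein, had the steeper slope, 0.89 ± 0.087 (SE) in log2 CPM per unit of score (limma adjusted p = 5.4e-05). It stood at 113 CPM in B16F10 replicate 4, 113 CPM in B16F0 replicate 3 and 53.9 CPM in B16F10 replicate 5, and at 13.3 to 31.6 CPM in the other 9 libraries. The 3 high values were thus in the 3 libraries of highest endothelial score, from both tumour lines. For comparison, Cdh5, which is itself in the score, had a slope of 1.20 ± 0.086 (SE).

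Abca1, which loads cholesterol onto lipid-poor apolipoprotein, had a slope of 0.46 ± 0.073 (SE), with a limma adjusted p of 0.00198. Its values were 197 CPM in B16F10 replicate 4 and 195 CPM in B16F0 replicate 3, and 44.1 to 115 CPM in the others. B16F10 replicate 5, also of high endothelial score, was at 112 CPM for Abca1, within the range of the other libraries. Both calls rested on these libraries. Without the 3 libraries of highest endothelial score the slopes were 0.26 for Abca1 and 1.10 for Abcg1, each with a limma adjusted p of 1. Macrophages can also express these exporters. The macrophage genes summed to 52.2 to 304 CPM in B16F10 and 96.1 to 323 CPM in B16F0, with all 16 listed genes detected and Adgre1 and Csf1r at up to 13.6 and 16.9 CPM. On the macrophage score Abca1 and Abcg1 had slopes of 0.011 and 0.0086. No cholesterol gene was called on that score, on which 0.0222% of tested genes were (lowest limma adjusted p among the 28, 0.40). Adgre1 and Csf1r, themselves in the score, had slopes of 1.00 and 1.26, each with a limma adjusted p of 0.40. The test thus did not call these markers, and it cannot decide whether macrophages contributed.

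The synthesis enzymes had slopes on the other side of 0. All 18 slopes on the endothelial score were negative, from -0.47 for Idi1 to -0.085 for Tm7sf2, with a median of -0.28 against -0.0066 over all tested genes. None passed the test (limma adjusted p 0.136 to 0.791). Without B16F0 replicate 1, 9 cholesterol genes fell with the score, without B16F10 replicate 5 the number was 2, and without B16F0 replicate 5 it was 1.

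**Figure D4:**
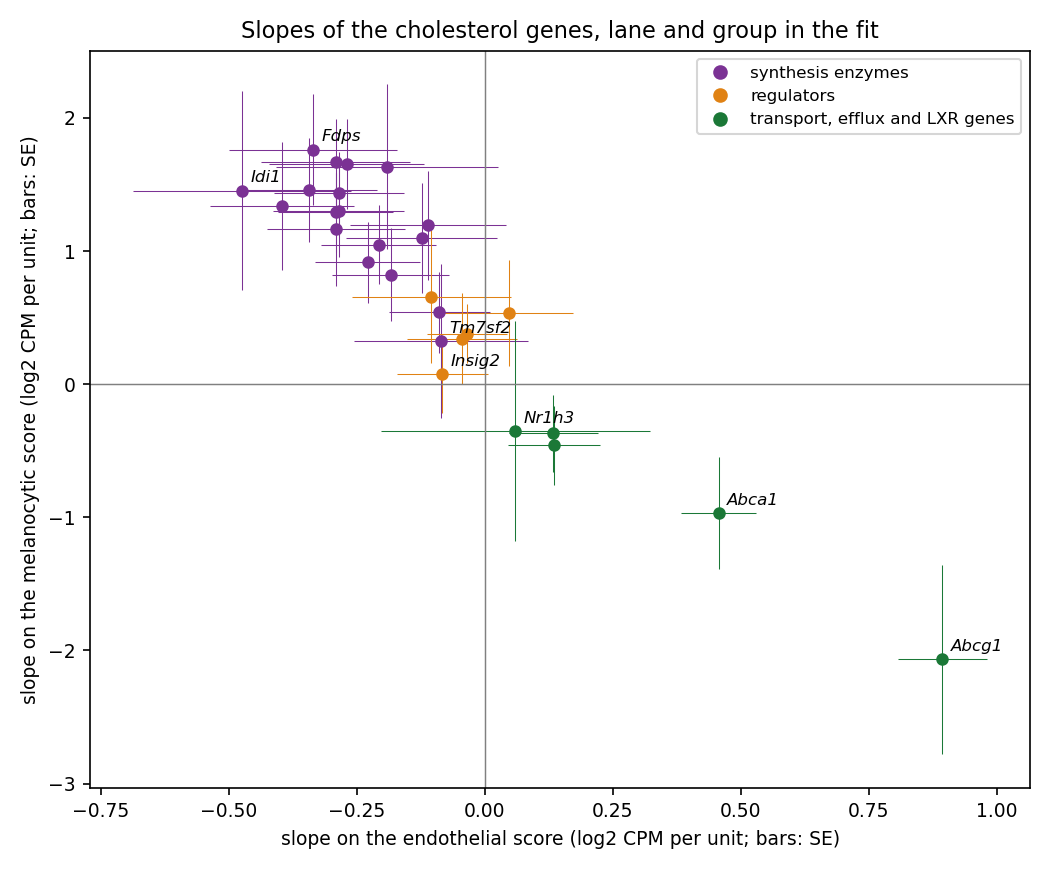
Slope of log2 CPM per unit of endothelial score (horizontal axis) and of melanocytic score (vertical axis) for the 28 cholesterol genes, each with its standard error, from limma fits that hold lane and group. Abca1 and Abcg1 stand apart at 0.46 and 0.89 on the endothelial axis, and the 18 synthesis enzymes lie to the left of 0 and above 0.

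On the melanocytic score 11 cholesterol genes rose, all of them synthesis enzymes, and 1 fell, Abcg1. Over all tested genes 15.5% rose and 17.1% fell with this score, so calls of either kind were frequent. The 11 were Acat2, Hmgcs1, Mvk, Fdps, Sqle, Lss, Cyp51, Msmo1, Nsdhl, Ebp and Dhcr7, with slopes from 0.92 to 1.76 in log2 CPM per unit and limma adjusted p-values from 0.00385 to 0.0491. All 18 synthesis slopes were above 0, with a median of 1.30 against -0.010 over all tested genes. Abcg1 had a slope of -2.07 ± 0.71 (SE), with a limma adjusted p of 0.0424. Of the regulators none was called, and Insig2 had a slope of 0.075 ± 0.29 (SE).

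The 3 libraries of highest melanocytic score carried these calls. Fdps, which makes farnesyl diphosphate, stood at 118, 99.8 and 108 CPM in B16F0 replicates 1 and 2 and B16F10 replicate 3, and at 38.0 to 65.1 CPM in the other 9. Lss stood at 146, 113 and 129 CPM in those 3 and at 39.4 to 73.9 CPM in the others, so that neither gene overlapped between these libraries and the rest. Without the 3 libraries no cholesterol gene rose or fell with the score. Without B16F10 replicate 3 alone 3 rose, and without B16F0 replicate 3 alone 5 rose. With the endothelial score in the fit 5 rose and none fell, and the slope of Abcg1 was 0.21. After lane and group were removed, the melanocytic and endothelial scores had a correlation of -0.70 over the 12 libraries. With both scores in the fit, Mvk, Fdps, Lss, Nsdhl and Ebp still rose with the melanocytic score, and Abca1 and Abcg1 still rose with the endothelial score, at slopes of 0.51 and 0.94 (limma adjusted p = 0.00762 and 0.000624). The same 3 libraries also had the highest macrophage scores, 3.50, 3.37 and 3.50 against 0.91 to 3.19 in the others. The melanocytic score was 8.38 ± 0.27 for B16F10 (SD, n = 7) against 8.71 ± 0.25 for B16F0 (SD, n = 5), with a two-sided p of 0.0606 by exact permutation (0.242 adjusted over 8 library measures, and 0.0611 within lanes). With it as a covariate, 7 synthesis genes had a fold change between the lines below 0 and 11 above 0, at a median of 0.18.

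**Figure D5:**
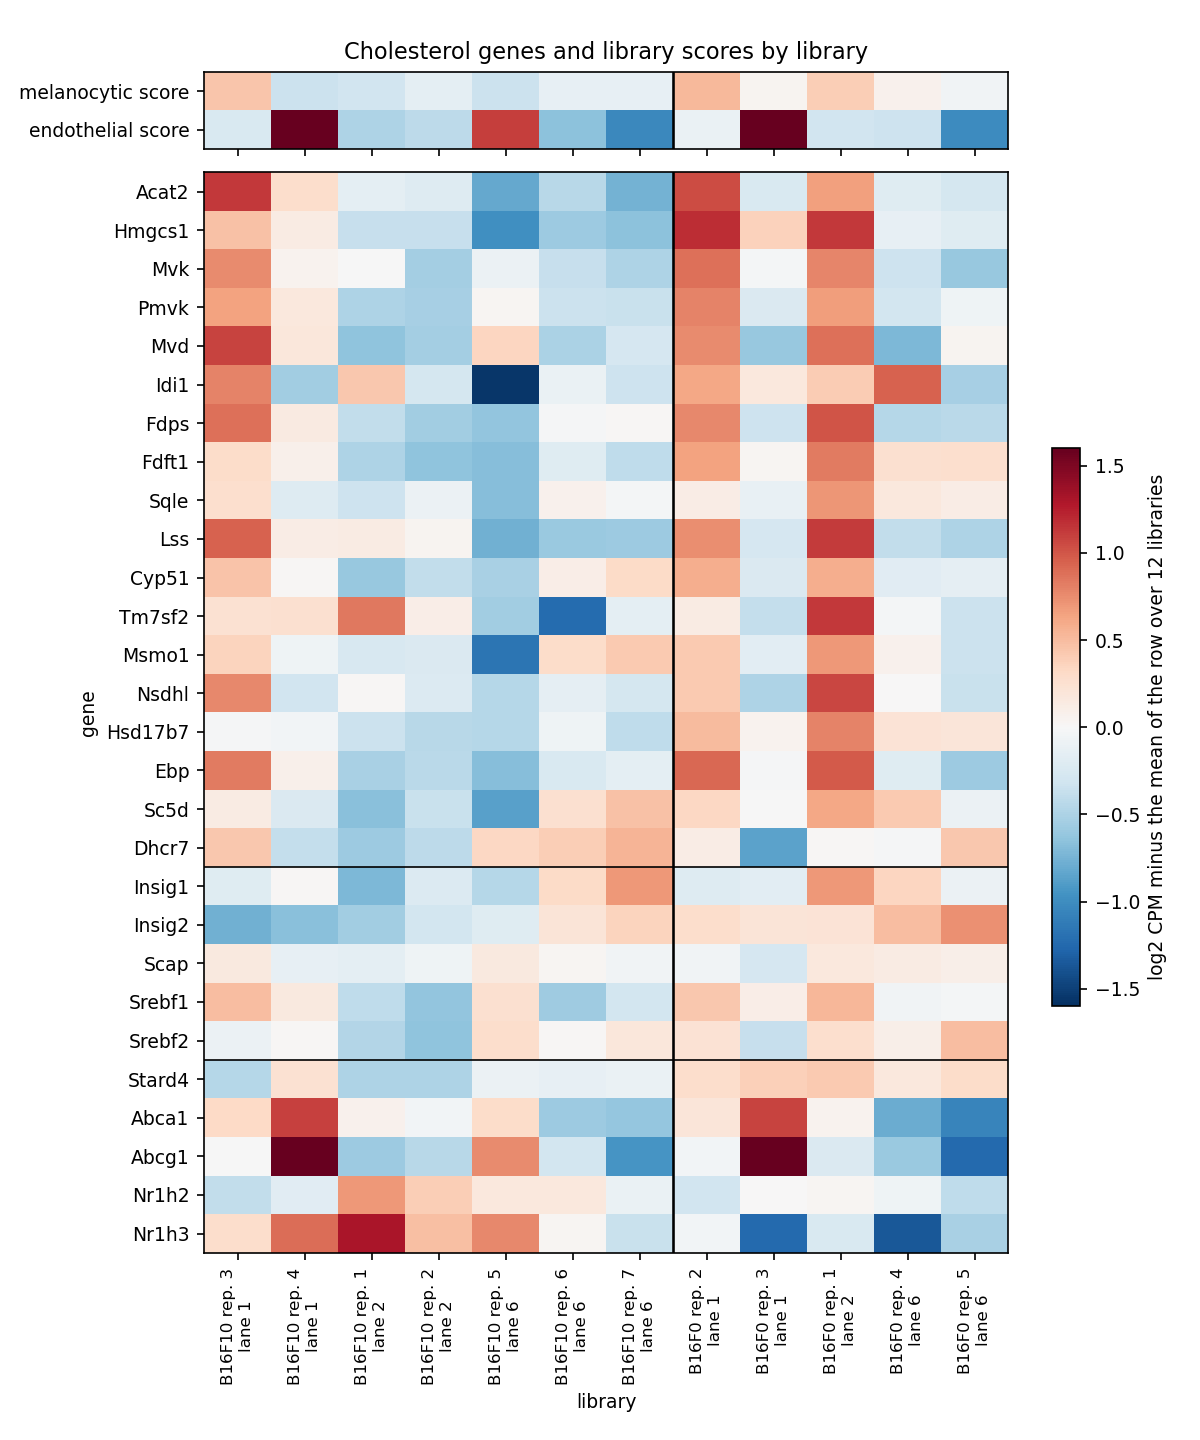
Log2 CPM of each cholesterol gene minus its mean over the 12 libraries (colour, red above and blue below) by library (columns, labelled with lane, B16F10 left of the line) and gene (rows, by role), with the melanocytic and endothelial scores centred the same way on top. The synthesis genes are red together in B16F10 replicate 3 and B16F0 replicates 1 and 2, and Abca1 and Abcg1 are red in B16F10 replicate 4 and B16F0 replicate 3.

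The synthesis genes varied together between libraries. After lane and group were removed from log2 CPM, the median correlation of the 153 pairs of synthesis genes over the 12 libraries was 0.76, and 151 of the pairs (98.7%) were positive. Among all pairs of tested genes the median was -0.0010 and 49.9% were positive. These correlations share libraries, depth and content, and they are a description. Without the 3 libraries of highest melanocytic score the median was 0.35. Hmgcs1 had the highest median correlation with the other enzymes, 0.85, and Idi1 and Tm7sf2, both of few CPM, the lowest, 0.36 and 0.38.

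The same few libraries stood out for most enzymes. B16F0 replicate 1 was among the 3 highest libraries for 16 of 18 synthesis genes, and B16F10 replicate 3 and B16F0 replicate 2 for 14 each. B16F10 replicate 5, with the largest share of Rn45s and a high endothelial score, was the lowest for 11 of 18. Without the 2 libraries rich in Rn45s the median correlation was 0.88.

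Regulators and efflux genes differed in how they varied with the enzymes. Scap, Srebf2, Srebf1 and Insig1 had median correlations with the 18 enzymes of 0.66, 0.64, 0.54 and 0.50. Insig2 had -0.062, positive with 8 of 18. Abca1, Abcg1 and Nr1h2 had -0.44, -0.44 and -0.63, positive with none of the 18, and Stard4 had 0.057. Insig2, the gene called between the tumour lines, was thus not among those that varied with the enzymes, and B16F10 replicate 3, high in most enzymes, had its lowest value, 91.4 CPM.

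Other genes of sterol handling were taken from a list of 32, of which 31 were tested, that is not complete. Of these 31, 2 were higher and 1 lower in B16F10, against 1.3% and 1.47% of all tested genes. Their median log2 fold change was -0.12. The lipoprotein receptor Vldlr rose, from 16.2 ± 4.69 CPM (SD, n = 5) in B16F0 to 35.2 ± 11.8 CPM (SD, n = 7) in B16F10. All its B16F10 libraries lay above all of B16F0, as for 1.27% of all tested genes. The log2 fold change was 1.10 ± 0.26 (SE), with an edgeR adjusted p of 0.0461. The related receptor Lrp8 rose with overlap, at 85.9 to 195 CPM in B16F10 and 49.3 to 125 CPM in B16F0, by 0.73 ± 0.15 (SE), with an edgeR adjusted p of 0.0188. Gramd1c, of a family that moves sterol from the plasma membrane inward, fell by 0.94 on the log2 scale (SE 0.18, edgeR adjusted p = 0.0107), from 6.47 to 12.4 CPM in B16F0 to 3.39 to 5.68 CPM in B16F10. The call of Vldlr was lost without any single library other than B16F10 replicate 3 or B16F0 replicate 1, that of Lrp8 without B16F0 replicate 2 or 4 (edgeR adjusted p 0.0538 and 0.0857), and that of Gramd1c without B16F0 replicate 5 (0.0583). Without lane 2 the edgeR adjusted p was 0.0757 for Lrp8 and 0.0666 for Gramd1c, and without both Rn45s-rich libraries it was 0.0565, 0.0519 and 0.155 for Lrp8, Gramd1c and Vldlr. Lrp8 was also not called without a lane term (0.294) or without a filter on low counts (0.0598). None of the 3 was called with the replicate number as a block. Of 17 genes of fatty acid synthesis, which SREBP factors also drive, 16 were tested and none was called. Their median was -0.25, with 14 of 16 below 0, against 47.5% of all tested genes below 0. The 2 of smallest p were the malic enzyme Me1, at -0.62 ± 0.16 (SE), with an edgeR adjusted p of 0.0673, and the elongase Elovl6, at 0.44 ± 0.15 (SE), with an edgeR adjusted p of 0.187.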

How the data were processed

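Ribosome-bound mRNA was measured in 12 libraries. The table the authors deposited holds raw read counts, as whole numbers, for each gene symbol. Per the submitters' processing notes, the build was mm10 and the tools included STAR 2.2.1, cutadapt 1.16, featureCounts 1.6.0, R 3.3.2 and edgeR. Which annotation and strand setting were used for counting is not given in the sources used here. The authors' deposited table of log2 fold changes and p-values was read with its decimal commas as points and used only where named. Normalized values were also deposited and left aside, because their decimal marks were lost.

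Groups came from the labels and lanes from the library names in them. Counts were filtered with filterByExpr of edgeR 4.0.16 (minimum count 10), scaled by TMM and tested with the quasi-likelihood F test with lane and group, in R 4.3.3, at a false discovery rate of 0.05 (Benjamini-Hochberg over 13534 genes, 8 residual degrees of freedom). Each standard error is |log2 fold change| over the root of F, and the biological coefficient of variation was 0.318. Slopes on library scores used limma 3.58.1 on log2 CPM with a prior count of 2, with 7 residual degrees of freedom. Exact permutation (792 splits, or 180 within lanes) served for library measures. The edgeR and limma scripts were tested on simulated data. Exon lengths, overlaps and positions come from GENCODE M21, and near-identical copies are those with at least 95% identity over 500 bases.

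All 28 cholesterol genes are accounted for. Of 2 further lists, of other sterol genes and of fatty acid genes, called genes and otherwise the 2 of smallest p were named. Members, lists and tests were chosen with earlier results of these data known. Marker lists of 8 cell types served as library measures. The group differences of their scores (B16F10 minus B16F0) were -0.014 for endothelial, -0.33 for melanocytic, 0.025 for macrophage, 0.84 for pericyte and fibroblast, -0.014 for adipocyte, 0.60 for keratinocyte (exact permutation p = 0.0114, adjusted 0.0909), 0.93 for T and NK and 0.33 for neutrophil genes, of which only 4 of 9 adipocyte, 2 of 7 keratinocyte, 1 of 8 T and NK and 1 of 6 neutrophil genes were tested. No replicates agreed within sampling noise (lowest chi-square per gene 8.72). Alternatives changed the batch term, scaling, filter, tool, covariates, threshold and libraries. DESeq2 1.42.0 and limma-voom were among them.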

Additional observations from a re-analysis of the deposited data

Results flagged for a closer look

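In 2 of 56 checks (28 genes in each of the 2 groups) the most extreme library stood further from its neighbour, as a share of the group's range, than Dixon's 95% limit, which chance alone passes in about 1 in 20 groups. Msmo1 was lowest in B16F10 replicate 5, at 76.9 CPM against 145 CPM in the next library, a gap of 0.575 of the group's range against a limit of 0.568. Nsdhl was highest in B16F10 replicate 3, at 46.2 CPM against 27.4 CPM in the next, a gap of 0.612 of the range. B16F10 replicate 5 is the library with 31.4% of its counts in Rn45s, and B16F10 replicate 3 is one of the 3 with the highest melanocytic score. Whether these bear on the values was not tested.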

How the results depend on the processing

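Depth limits Nr1h3 and Idi1 most, and 12 libraries on 3 lanes limit the rest. The slope alternatives for the melanocytic score, those without its 3 highest libraries and those of the lane term and the correlations were chosen after seeing the data, and where a value changed the cause was not tested. No cholesterol gene was higher in B16F10 under any setting run. Replicate numbers did not pair the libraries: deviations of same-numbered libraries correlated at -0.27, -0.27, -0.24, -0.29 and 0.32 for numbers 1 to 5. With the replicate block in place of the lane, 30 genes were higher and 28 lower in B16F10, no cholesterol gene was called, and Mvd, Tm7sf2 and Dhcr7 had fold changes of 0.020, 0.081 and -0.082. The counts higher and lower over all genes were 317 and 379 with the library name prefix in place of the lane, 495 and 397 by DESeq2, 333 and 336 by limma-voom, 335 and 302 with the melanocytic covariate, 289 and 354 at a false discovery rate of 0.1, 96 and 81 without lane 2, 111 and 125 without both Rn45s-rich libraries, and 136 and 131 without a lane term. The number of cholesterol genes lower was 5 with the prefix, by DESeq2 and at the rate of 0.1, 4 with the endothelial covariate and also when the 3 libraries highest in endothelial score were left out, 3 with upper quartile scaling and without Rn45s, 2 with no filter, with CPM above 1 in at least 5 libraries and with the melanocytic covariate, and 0 without a lane term, without lane 2 and without the Rn45s-rich libraries. Leaving out each library in turn gave 104 to 199 genes higher and 99 to 247 lower, and 0 to 4 cholesterol genes lower. The call of Insig2 was lost in 11 of 29 settings, at log2 fold changes of -0.88 to -0.51 over all of them (adjusted p 0.000491 to 0.202). Hmgcs1 was called in 12, Hsd17b7 in 8, Stard4 in 7 and Fdft1 in 6 of the 29. Each of these counts includes the main fit read at a false discovery rate of 0.1. The number of cholesterol genes related to lane was 2 with upper quartile scaling, 10 without the 3 libraries highest in endothelial score and 0 to 7 with single libraries left out. Fold changes crossed 0 as follows. Without a lane term Abcg1 was at -0.014, and without the Rn45s-rich libraries at -0.095. With upper quartile scaling Scap was at 0.012. By limma-voom Mvd was at 0.16, Fdps 0.27, Cyp51 0.19, Msmo1 0.20, Ebp 0.021 and Insig1 0.19. With the melanocytic covariate Acat2 was at 0.17, Mvk 0.18, Pmvk 0.077, Mvd 0.40, Fdps 0.40, Lss 0.21, Cyp51 0.23, Msmo1 0.25, Nsdhl 0.29, Ebp 0.19, Insig1 0.015, Scap 0.087, Abca1 -0.055 and Abcg1 -0.49. Without lane 2 Mvk was at 0.072, Pmvk 0.020, Mvd 0.33, Fdps 0.26, Lss 0.019, Cyp51 0.11, Msmo1 0.085, Nsdhl 0.083, Ebp 0.023, Insig1 0.13 and Scap 0.059. Leaving out single libraries gave ranges of -0.36 to 0.055 for Mvk, -0.46 to 0.0024 for Pmvk, -0.37 to 0.31 for Mvd, -0.38 to 0.25 for Fdps, -0.44 to 0.0034 for Lss, -0.33 to 0.095 for Cyp51, -0.29 to 0.071 for Msmo1, -0.47 to 0.068 for Nsdhl, -0.52 to 0.0073 for Ebp, -0.073 to 0.27 for Dhcr7, -0.32 to 0.11 for Insig1 and -0.10 to 0.042 for Scap. On the endothelial score 2 cholesterol genes rose in each setting but the one without its 3 highest libraries, where 0 did. Those falling were 3 without the Rn45s-rich libraries, 2 without the 3 libraries of highest melanocytic score and 0 to 9 with single libraries left out, 9 being the number without B16F0 replicate 1. On the melanocytic score those rising were 5 with the endothelial covariate, 0 without its 3 highest libraries and 3 to 15 with single libraries left out. Those falling were 2 without the Rn45s-rich libraries, 0 without a lane term, with the endothelial covariate and without either set of 3 libraries, and 0 to 2 with single libraries left out. The slope of Abcg1 on it was 0.21 with the endothelial covariate, and leaving out the 3 libraries highest in endothelial score made it 1.14. Without the 3 of highest melanocytic score the slopes of Acat2, Mvk, Lss and Dhcr7 were -0.37, -0.84, -0.14 and -0.18.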
